A study of Mus musculus with 12 samples.

Results

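The genes described here are 36 antioxidant and redox enzymes of the mouse, with the regulators that stand beside them, in bulk RNA-seq of LSK cells, the Lin-Sca+Kit+ compartment of bone marrow that holds the haemopoietic stem cells and the earliest progenitors. They were taken by symbol and not by a cutoff on any measured value, although earlier results of these data were known. They cover the peroxiredoxins with sulfiredoxin, the thioredoxin and glutaredoxin systems, and the enzymes that make, recycle and use glutathione. Catalase and the superoxide dismutases, the NRF2 pathway and the membrane subunits of the phagocyte NADPH oxidase are also included. All 36 were matched to 1 identifier each among 56748, and all 36 were among the 18438 genes with enough counts to be tested.

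The 12 libraries came from irradiated B6.SJL (CD45.1) recipient mice aged 8 to 12 weeks, which received 2 doses of 4.25 Gy and then bone marrow of SCLtTA/BCR-ABL double transgenic (DTG, CD45.2) donors. In this model SCL regulatory sequence drives a tetracycline-repressed transactivator, so that BCR::ABL1 is made in primitive haemopoietic cells once tetracycline (TET) is withdrawn. Every recipient first drank TET. It was then withdrawn for 2 weeks in the cohort labelled CML 2wk (n = 6, TET off, disease state CML, here BCR::ABL1+) and continued in the cohort labelled CTRL (n = 6, TET on, disease state normal, here BCR::ABL1-). Both groups therefore carry the same transgenes, the same transplant and the same donor cells, drawn from a pool of frozen marrow, and the sorted cells were CD45.2+. The labels give the CTRL animals as male and the CML 2wk animals as female, so sex as labelled and BCR::ABL1 expression cannot be told apart. The study's methods, in contrast, describe recipients and pooled donors of both sexes. Whether the labelled sex is that of the recipients or of the sequenced donor cells is not resolved here. Exposure to TET in the last 2 weeks also differed between the groups. Any effect of TET itself therefore cannot be told apart from that of BCR::ABL1 either.

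Cells that respire or signal through oxidases make superoxide and hydrogen peroxide. Superoxide dismutases convert the first to the second. Catalase removes hydrogen peroxide without thiols, and glutathione peroxidases and peroxiredoxins remove it at the cost of thiols. Thioredoxin and glutathione restore those thiols and are themselves re-reduced by thioredoxin reductase and glutathione reductase with NADPH. NRF2 (Nfe2l2), held down by KEAP1 in the resting cell, induces many of these genes through the antioxidant response element in their promoters, while the gp91phox and p22phox pair of the NADPH oxidase works in the other direction and makes superoxide. Haemopoietic stem cells are known for a low level of reactive oxygen species.

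Per library, 22804754 to 41832868 counts fell on genes in the BCR::ABL1- group and 16150817 to 25070105 in the BCR::ABL1+ group. Spread was wider in the BCR::ABL1+ group, the biological coefficient of variation being 32.6% there and 10.8% in controls, and mitochondrially encoded genes took 2.26 to 2.97% of its counts against 0.816 to 1.29%. Of the sort markers, Ptprc (CD45) and Kit were abundant in every library. Kit had 680 to 799 CPM (counts scaled to the size of the library) in the BCR::ABL1- group and 322 to 519 in the BCR::ABL1+ group, with a log2 fold change of -0.86. Ly6a (Sca-1) was detected at 27.2 to 38.3 and 31.3 to 73.6 CPM. The marker counts that follow stand against 30.6% higher and 29.0% lower over all genes tested, at an adjusted p under 0.05. Several of them lie near those shares. In the lists of markers, given as summed CPM in BCR::ABL1- and then BCR::ABL1+ libraries, 2 of 12 stem and progenitor genes were higher and 9 lower (3176 to 3587, then 2135 to 2616). Among 15 neutrophil genes 5 were higher and 5 lower (2396 to 4923, then 3170 to 8603), with Mpo and Ctsg of the primary granules, its most abundant genes, among the higher ones. Of the monocyte and macrophage genes 5 of 13 were higher and 0 lower (349 to 619, then 565 to 1246). Erythroid genes were lower in 10 of 14 and higher in 1 (593 to 779, then 413 to 788). Mast cell and basophil genes were higher in 8 of 12 and lower in 1 (319 to 433, then 507 to 2676), and megakaryocyte and platelet genes were lower in 7 of 8 (318 to 371, then 122 to 311). The B cell list had 2 of 8 lower (32.9 to 133, then 26.2 to 105), and the T and NK cell list 2 higher and 2 lower of 8 (75.8 to 99.8, then 86.4 to 192). Stromal genes were higher in 5 of 9 (152 to 176, then 104 to 3721), with the largest sums in BCR::ABL1+ replicates 2 and 4. In BCR::ABL1+ replicates 1, 3, 5 and 6 the sums were 139, 108, 151 and 104 CPM, below every control library. Only 1 stromal gene was higher without overlap of the groups. Gp6 was the only listed marker at 0 in every library of a group. The part that these other cells play in the results below was not tested, and in bulk samples fewer cells of a type and less RNA per cell cannot be told apart.

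Several members have a promoter that holds the letters of the antioxidant response element, and these are shown because they include members that rose and members that did not pass the test. RefSeq promoters (build GRCm38.p6, 250 bases before to 50 after each start) were present for 32 of the 36 members. The element TGACNNNGC, sought on both strands, was found for 7 of these 32 genes, against 14.0% of all 27025 genes with a promoter and 12.4% of all 32851 promoters. They were Prdx1 and Mgst1, which were higher in BCR::ABL1+ cells, and Srxn1, Gclm, Txnrd1, Sod1 and Nfe2l2, which did not pass the test. In Nfe2l2 the element (TGACTCCGC, first base at -240 from the start) reads on the strand of the gene, and its stretch is not shown. In Srxn1 the element lies after the start and is not shown either. Capitals mark the element in the upstream stretches of the other 5 below, written 5′ to 3′ on the strand of the gene. In each of the 5 shown it reads on the opposite strand.
Prdx1 (chr4:116685449-116685598, + strand): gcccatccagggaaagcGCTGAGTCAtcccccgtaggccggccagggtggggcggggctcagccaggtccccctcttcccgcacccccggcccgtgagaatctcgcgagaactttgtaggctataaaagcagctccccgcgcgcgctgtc
Mgst1 (chr6:138140377-138140526, + strand): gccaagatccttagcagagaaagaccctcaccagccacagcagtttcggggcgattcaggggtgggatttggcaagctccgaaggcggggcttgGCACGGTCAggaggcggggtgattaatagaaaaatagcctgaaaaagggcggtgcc
Gclm (chr3:122245398-122245457, + strand): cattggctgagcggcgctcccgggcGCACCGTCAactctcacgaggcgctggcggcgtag
Txnrd1 (chr10:82859089-82859148, + strand): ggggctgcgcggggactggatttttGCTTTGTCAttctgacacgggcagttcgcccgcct
Sod1 (chr16:90220681-90220740, + strand): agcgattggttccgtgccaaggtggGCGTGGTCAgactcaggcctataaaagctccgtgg

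Other motifs sought in the same windows were a form of the element that is 1 base longer and contains the one above, found for 1 member (Txnrd1) and 3.45% of all genes, the E-box CACGTG, found for 2 members and 8.09% of all genes, and the CCAAT box, found for 14 members and 41.1% of all genes. The cAMP response element TGACGTCA was found for 0 members and 2.03% of all genes, and the MAF recognition element for 0 members and 0.0037% of all genes. All 6 motifs were chosen with the members' changes already known. A match gives letters only, and no binding was measured in these samples.

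The question put to the data was which of these enzymes changed when LSK cells expressed BCR::ABL1. In BCR::ABL1+ cells 18 of the 36 members were higher, 4 were lower and 14 did not pass an adjusted p of 0.05 in the quasi-likelihood fit of edgeR across every gene tested (Benjamini-Hochberg). Over all genes, 30.6% were higher and 29.0% lower under the same rule. The enzymes that remove peroxide with thiols were among those that rose: the peroxiredoxins Prdx1, Prdx2, Prdx3, Prdx5 and Prdx6, thioredoxin (Txn1), both glutathione peroxidases, glutathione reductase (Gsr) and all 3 microsomal glutathione transferases. Catalase (Cat), mitochondrial thioredoxin reductase (Txnrd2), Keap1 and Nqo1 fell. The 6 BCR::ABL1+ values lay wholly above the 6 BCR::ABL1- values for 12 members and wholly below for 4, where over all genes the shares were 17.0% and 20.6%. The median log2 fold change was 0.27 for the members and 0.07 for all genes tested.

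Members were abundant genes for the most part, and the background differed with abundance. At a mean log2 CPM of at least 5, 29.4% of 6445 genes were higher and 46.1% lower, while 13 of the 26 members at that level were higher and 2 lower. Change also followed gene length over the whole table. With genes put in 5 bins of exon length, 40.9% were higher and 5.97% lower in the shortest bin (up to 1522 bases), with a median log2 fold change of 0.50, and in the longest bin 18.2% were higher and 51.9% lower, with a median of -0.27. The members called higher had a median exon length of 2081 bases and those not called 4089. Genes with a mean log2 CPM of at least 5 had a median of 5382.5 bases, and the members at that level 3366. The comparison by abundance is therefore not separate from length. With the length trend of each library removed, a setting chosen after the data had been seen, 20 members were higher and 3 lower, 20 of the 22 calls were made in the same direction, and 15 of the 22 were smaller in size. The plot of change against exon length shows where each member stood relative to genes of its own length. Exons of Prdx2, Prdx5, Txnrd2, Gclm, Gss and Keap1 overlap a gene on the opposite strand, by up to 19.1% of the length (Prdx5), and 7 members have near-identical copies elsewhere, which for all but Gpx4 and Gstp1 held counts of at most 0.439% of the member's own.

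**Figure D1:**
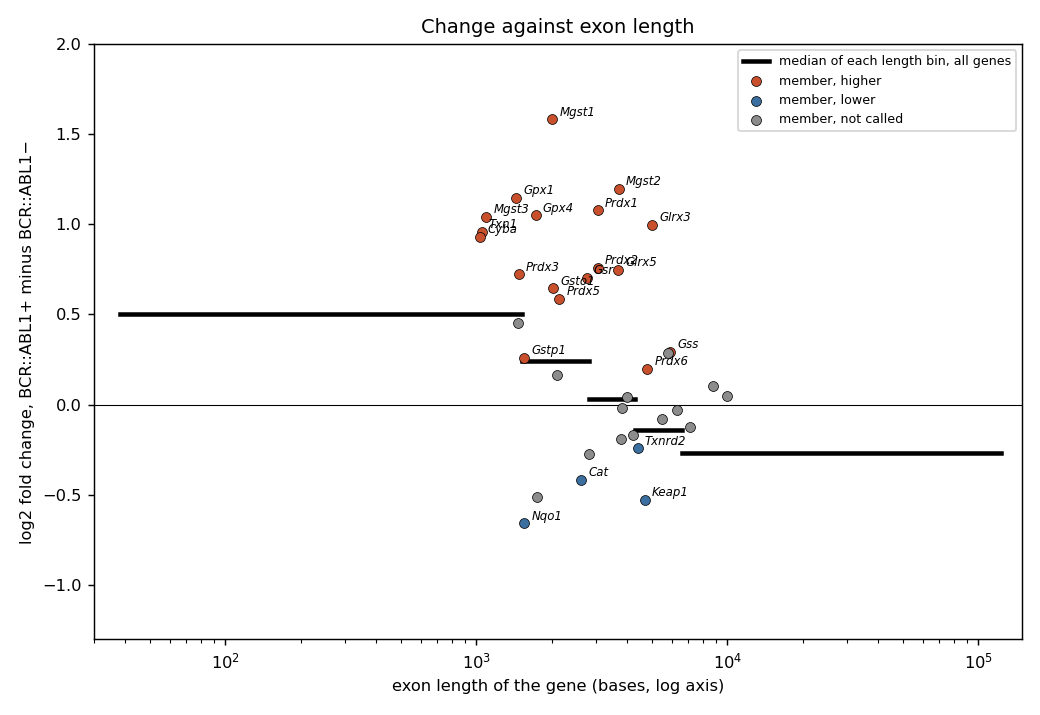
Log2 fold change of each member (points; red higher, blue lower, grey not called) against the exon length of its gene in bases on a log axis; black bars are the medians of all genes tested in each of 5 bins of length, from 0.50 in the shortest to -0.27 in the longest. The members called higher lie above the bar of their length, Gstp1 by the smallest margin.

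**Figure D2:**
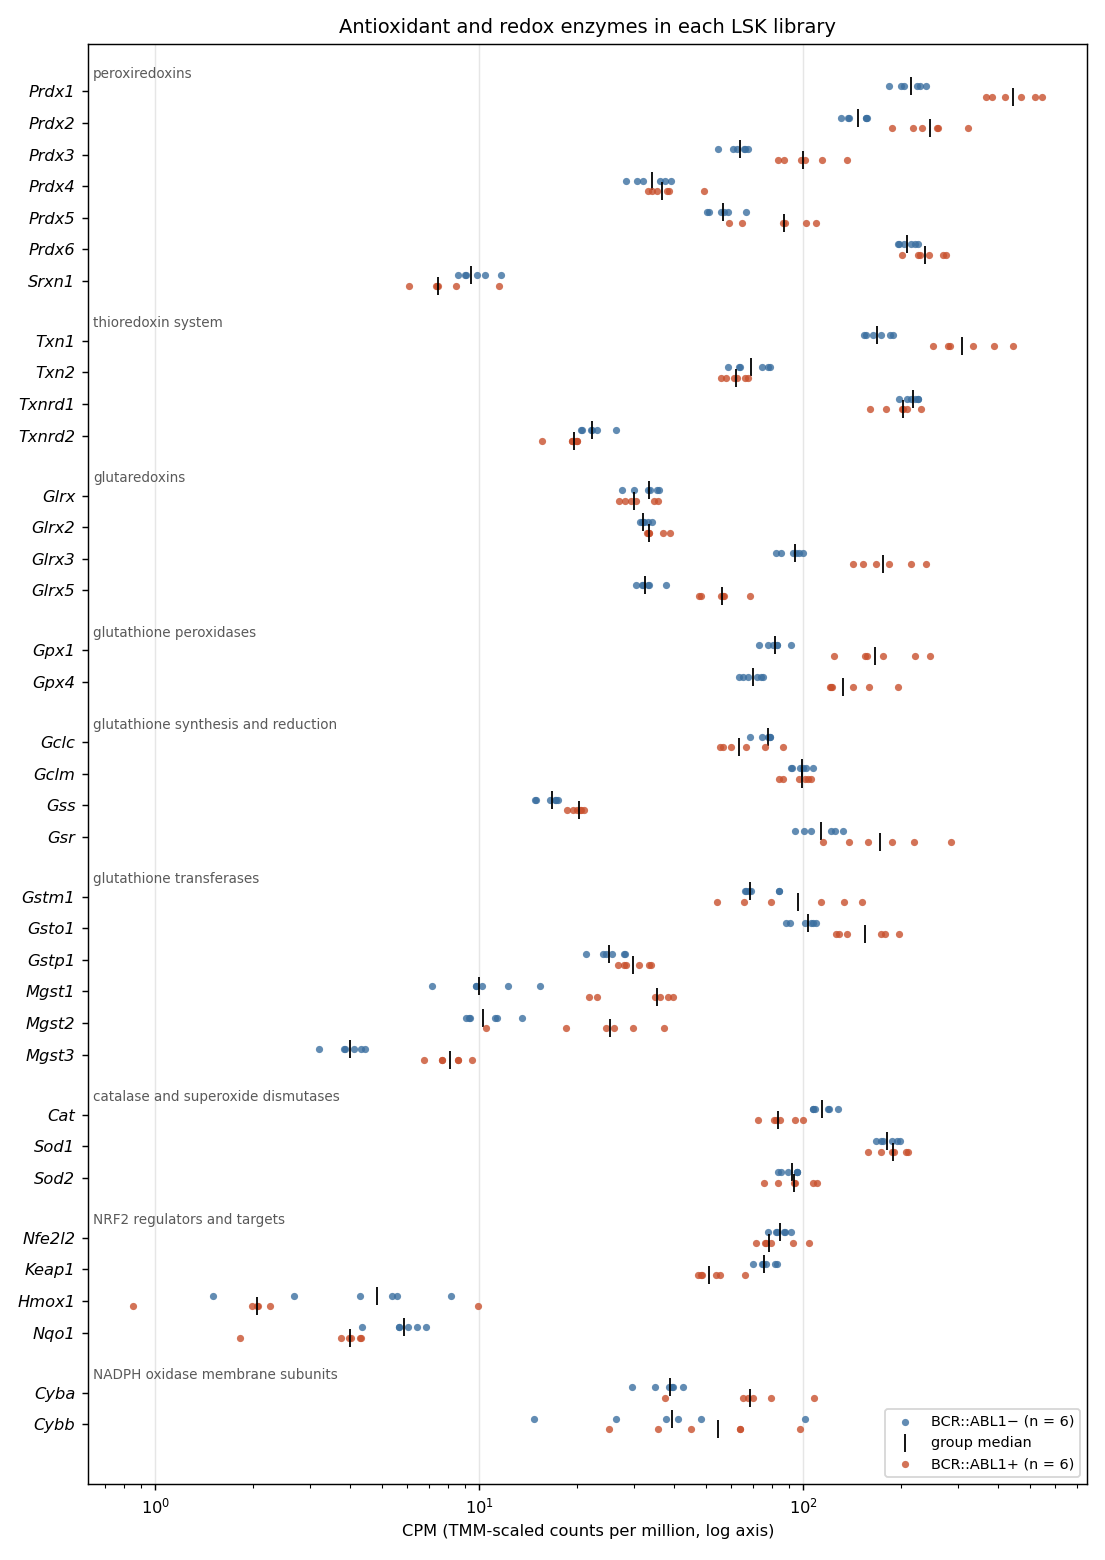
CPM on a log axis for all 36 members in each of the 12 libraries, by enzyme family, with 6 BCR::ABL1- libraries in blue, 6 BCR::ABL1+ libraries in red and the group medians as black ticks. The groups stand apart for Prdx1, Txn1, Glrx3, Gpx1, Gpx4 and Mgst1, and overlap for Sod1, Nfe2l2 and Gclm.

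Peroxiredoxins reduce hydrogen peroxide with a reactive cysteine, and 5 of 7 members of this family were higher and 0 lower. Prdx1, a cytosolic enzyme, had a lowest, median and highest value of 184, 214 and 239 CPM in the BCR::ABL1- group and 367, 444 and 545 CPM in the BCR::ABL1+ group. Every BCR::ABL1+ library exceeded every control library, and the log2 fold change was 1.08 ± 0.10 (SE; adjusted p = 7.09e-07). Prdx2, the other typical cytosolic form, went from 131, 147 and 157 CPM to 188, 246 and 322 CPM, a log2 fold change of 0.76 ± 0.11 (adjusted p = 2.69e-05). Its groups did not overlap. Mitochondrial Prdx3 had 54.7, 63.9 and 67.4 CPM against 83.8, 99.8 and 136 CPM (log2 fold change 0.72 ± 0.10, adjusted p = 3.39e-05), again without overlap, and its change was 0.38 with the length trend removed. Prdx5, found in several organelles, rose by 0.59 ± 0.14 on the log2 scale (adjusted p = 0.00188) from 50.4, 56.4 and 66.7 CPM to 58.8, 87.2 and 110 CPM, with overlapping groups. With the length trend removed its change was 0.39. Its exons share 409 bases with Trmt112 on the opposite strand, whose reads cannot be told apart if counting ignored strand.

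Prdx6, the form with a single catalytic cysteine that draws on glutathione, changed least of the called peroxiredoxins, from 196, 210 and 227 CPM to 201, 237 and 275 CPM. The groups overlapped, its log2 fold change was 0.20 ± 0.08 (adjusted p = 0.0384), and the call was made in only 12 of 25 alternative fits. It was lost on leaving out any 1 of BCR::ABL1- replicates 1, 2, 3, 4 and 6 or of BCR::ABL1+ replicates 1, 2 and 6, where its log2 fold change stayed between 0.15 and 0.21. Prdx4, the form of the endoplasmic reticulum, did not pass the test, at 34.1 and 36.7 CPM by the medians (log2 fold change 0.17 ± 0.11, adjusted p = 0.188), and BCR::ABL1+ replicate 4 stood above the rest at 49.4 CPM. Srxn1, sulfiredoxin, which rescues over-oxidised peroxiredoxins and is a textbook NRF2 target, had medians of 9.44 and 7.43 CPM and a log2 fold change of -0.27 ± 0.15 (adjusted p = 0.124). BCR::ABL1+ replicate 2 was its highest library of that group, at 11.5 CPM.

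The thioredoxin system divided by member. Txn1, the cytosolic thioredoxin that re-reduces the peroxiredoxins, had 153, 169 and 189 CPM in the BCR::ABL1- group and 252, 309 and 443 CPM in the BCR::ABL1+ group. No values overlapped, and the log2 fold change was 0.96 ± 0.12 (adjusted p = 1.16e-05) and 0.53 with the length trend removed. Txn1 was also the member with the highest level per length, at a median of 160 CPM per kilobase of exon in BCR::ABL1- cells and 294 in BCR::ABL1+ cells, ahead of Prdx1 at 70.4 and 146. The reductase that recharges it, Txnrd1, had medians of 218 and 202 CPM, overlapping groups and a log2 fold change of -0.12 ± 0.08 (adjusted p = 0.189). The thioredoxin transcript rose and that of its cytosolic reductase did not pass the test.

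Txnrd2 and Txn2 are the mitochondrial pair. Txnrd2 fell by 0.24 ± 0.09 on the log2 scale (adjusted p = 0.0254), from 20.6, 22.2 and 26.4 CPM to 15.7, 19.6 and 20.05 CPM. The groups were separate by a small margin, and the call was made in 17 of 25 alternative fits, with a value of -0.15 once the length trend was removed and 0.10 once length and GC trends were removed. Leaving out BCR::ABL1- replicate 5 alone ended it, at -0.20 (adjusted p = 0.0634). Txn2 had medians of 69.0 and 61.9 CPM (log2 fold change -0.17 ± 0.08, adjusted p = 0.0925) and passed as lower only without BCR::ABL1- replicate 2 (-0.22, adjusted p = 0.0297) or BCR::ABL1+ replicate 6 (-0.20, adjusted p = 0.0449) among the fits that left out 1 library.

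Glutaredoxins use glutathione to reduce protein disulfides, and the monothiol forms Glrx3 and Glrx5 handle iron-sulfur clusters. Both of these rose. Glrx3, which serves cytosolic iron delivery, had 82.1, 94.1 and 99.6 CPM against 142, 176 and 239 CPM, with a log2 fold change of 1.00 ± 0.11 (adjusted p = 3.45e-06). Glrx5, its mitochondrial counterpart, required for cluster assembly and haem synthesis, had 30.4, 32.5 and 37.7 CPM against 47.6, 56.0 and 68.4 CPM (log2 fold change 0.75 ± 0.09, adjusted p = 4.41e-06). Neither gene had overlapping groups, and neither change shrank with the length trend removed, at 1.13 and 0.77. The dithiol enzymes did not pass the test: Glrx had medians of 33.4 and 29.9 CPM (log2 fold change -0.08 ± 0.09, adjusted p = 0.459) and Glrx2 had 32.1 and 33.4 CPM (0.10 ± 0.06, adjusted p = 0.151), although Glrx2 was called higher, at 0.33, with the length trend removed.

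Both glutathione peroxidases measured as members rose. Gpx1, the selenoenzyme that clears hydrogen peroxide in the cytosol, had 72.8, 81.7 and 91.5 CPM in the BCR::ABL1- group and 125, 167 and 247 CPM in the BCR::ABL1+ group (log2 fold change 1.15 ± 0.14, adjusted p = 5.33e-06). Gpx4, which reduces lipid hydroperoxides and guards against ferroptosis, had 63.4, 69.7 and 75.1 CPM against 121, 133 and 195 CPM (1.05 ± 0.11, adjusted p = 1.83e-06). In both genes the lowest BCR::ABL1+ library, replicate 5, lay above every control library, and replicate 6 was the highest. With the length trend removed the changes were 0.80 and 0.75. Gpx4 has 2 near-identical copies in the genome that held counts equal to 5.96% of its own, the largest such share of any member, and how the counting divided shared reads is not known.

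The 4 genes of glutathione synthesis and reduction also differed by step. Gclc and Gclm encode the catalytic and modifier subunits of glutamate-cysteine ligase, the rate-limiting enzyme, and neither passed the test. Gclc had 68.2, 78.0 and 79.2 CPM against 55.3, 63.1 and 86.3 CPM (log2 fold change -0.19 ± 0.10, adjusted p = 0.12), and Gclm had medians of 98.9 and 99.1 CPM (-0.03 ± 0.07, adjusted p = 0.733). The second enzyme of the route, Gss, rose by 0.29 ± 0.07 on the log2 scale (adjusted p = 0.0034) from 14.8, 16.8 and 17.5 CPM to 18.6, 20.2 and 21.0 CPM, with no overlap. Gsr, which regenerates reduced glutathione, rose by 0.70 ± 0.18 (adjusted p = 0.00382), from 94.2, 113 and 133 CPM to 115, 173 and 286 CPM. Its groups overlapped, BCR::ABL1+ replicate 2 being highest and replicate 4 lowest.

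Glutathione transferases attach glutathione to electrophiles, and the microsomal forms also reduce lipid peroxides. Mgst1 showed the largest change of any member, from 7.16, 9.98 and 15.4 CPM to 21.8, 35.4 and 39.5 CPM, with no overlap and a log2 fold change of 1.58 ± 0.19 (adjusted p = 5.99e-06). Mgst2, which can also make leukotriene C4, went from 9.12, 10.2 and 13.6 CPM to 10.5, 25.3 and 37.2 CPM (1.20 ± 0.23, adjusted p = 0.000429), and only BCR::ABL1+ replicate 5 lay within the control range. Mgst3 was the least abundant of the 3, at 3.21, 3.97 and 4.45 CPM against 6.76, 8.13 and 9.49 CPM, and its groups did not overlap (1.04 ± 0.13, adjusted p = 8.15e-06). Among the soluble enzymes, Gsto1, an omega-class transferase with reductase activity, had 88.5, 104 and 110 CPM against 126, 155 and 197 CPM (0.64 ± 0.11, adjusted p = 0.000189), without overlap.

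Gstp1 and Gstm1 gave less stable values. Gstp1, the pi-class enzyme, was called higher at 0.26 ± 0.09 (adjusted p = 0.0184), from medians of 25.1 to 29.7 CPM with overlapping groups, but leaving out BCR::ABL1- replicate 4 ended the call (0.21, adjusted p = 0.0527) and removing the length trend brought the value to -0.06. It has 2 near copies with counts equal to 1.82% of its own. Gstm1, of the mu class, did not pass the test and was among the most variable members in BCR::ABL1+ cells, at 54.3, 96.3 and 152 CPM against 66.0, 68.6 and 84.0 CPM (0.45 ± 0.21, adjusted p = 0.0766). It passed without BCR::ABL1+ replicate 4 (0.55, adjusted p = 0.0361) or without replicate 5 (0.58, adjusted p = 0.0139). With the length trend removed the value of Gstm1 was 0.13 (adjusted p = 0.647).

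Of the enzymes that act on superoxide and peroxide without thiols, 1 of 3 was called. Cat, the peroxisomal catalase, fell by 0.42 ± 0.08 on the log2 scale (adjusted p = 0.000325), from 107, 114 and 128 CPM to 72.6, 83.7 and 99.7 CPM. All 6 BCR::ABL1+ libraries were below all 6 controls, the call was made in 25 of 25 alternative fits, and with the length trend removed the value was -0.53. Sod1, the cytosolic copper-zinc dismutase, had medians of 181 and 189 CPM (log2 fold change 0.04 ± 0.07, adjusted p = 0.662), and Sod2, the mitochondrial manganese form, 92.5 and 93.7 CPM (0.05 ± 0.09, adjusted p = 0.642). Removing the length trend brought Sod2 to 0.29 and past the threshold (adjusted p = 0.0079).

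**Figure D3:**
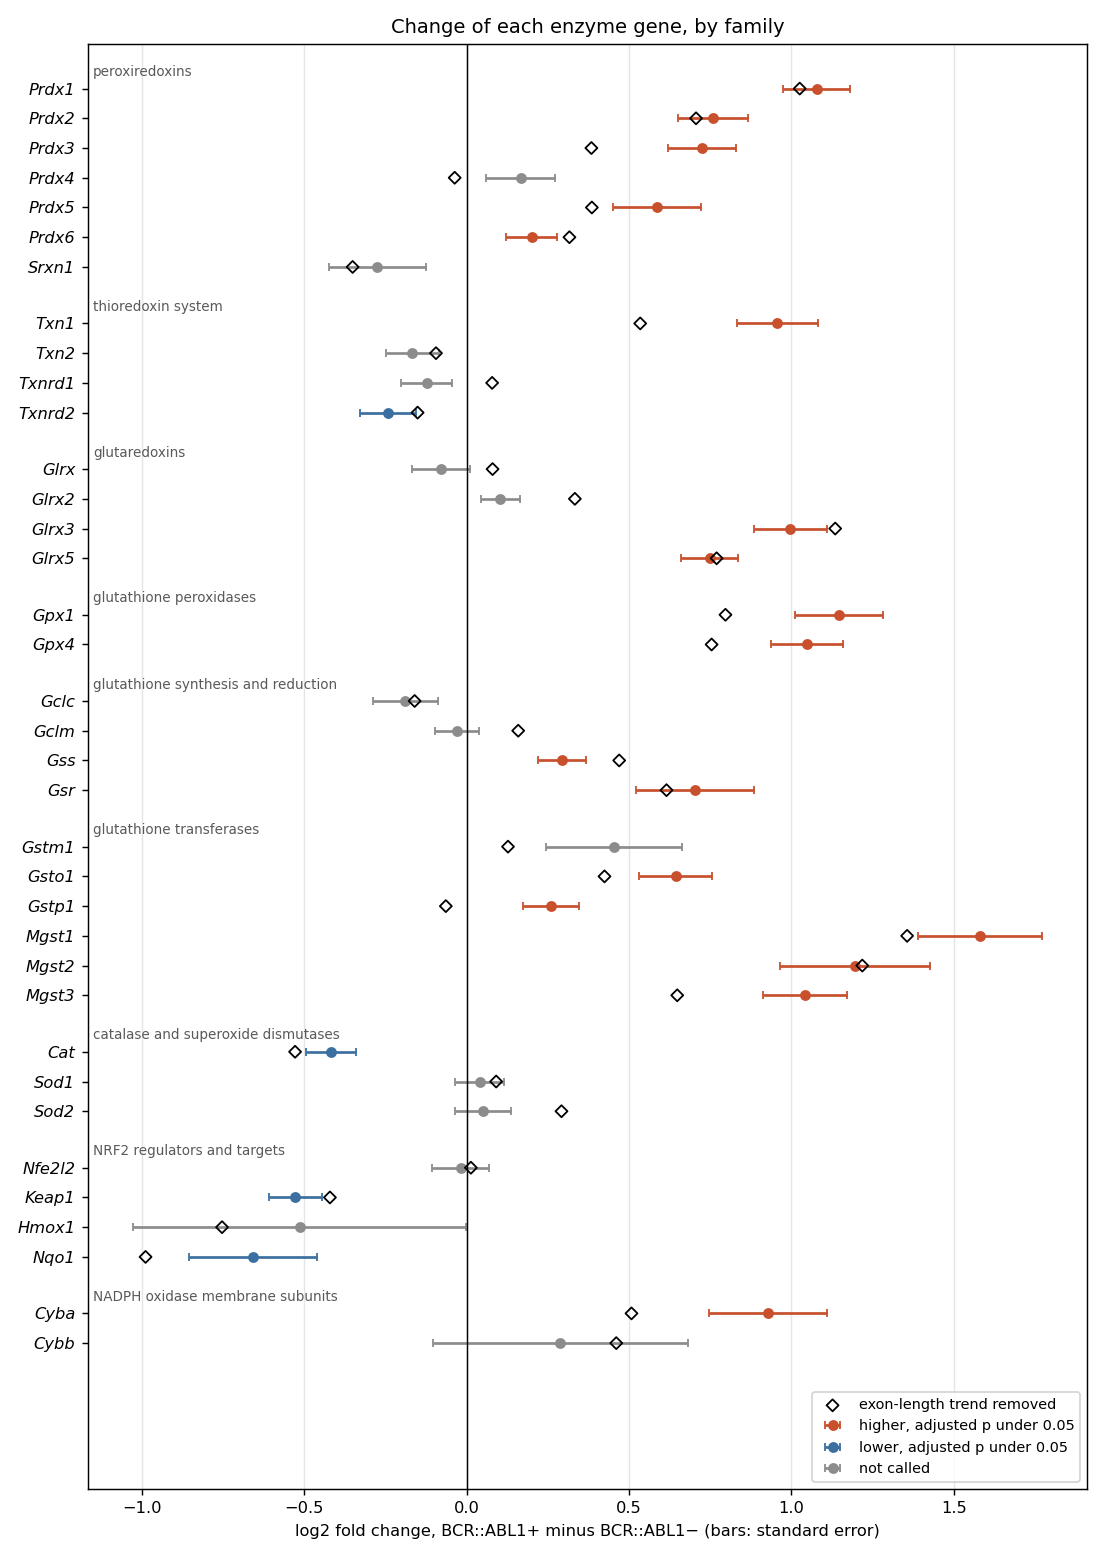
Log2 fold change of each member between the 6 BCR::ABL1+ and 6 BCR::ABL1- libraries with its standard error, by family; red points passed an adjusted p of 0.05 as higher, blue as lower and grey did not, and open diamonds give the value with the exon-length trend removed. Mgst1 at 1.58 is the highest point, and the 4 blue points are Txnrd2, Cat, Keap1 and Nqo1.

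None of the 4 NRF2 genes passed the test as higher. Nfe2l2, which encodes NRF2, had 77.6, 84.9 and 91.5 CPM in the BCR::ABL1- group and 71.3, 78.1 and 104 CPM in the BCR::ABL1+ group, with a log2 fold change of -0.02 ± 0.09 (adjusted p = 0.866). Keap1, the adaptor that sends NRF2 to degradation, fell by 0.53 ± 0.08 (adjusted p = 6.34e-05) from 69.7, 75.8 and 83.1 CPM to 47.1, 51.2 and 66.0 CPM, with separate groups. The antisense gene Gm16754 shares 510 bases of its exons, and with length and GC trends removed the change of Keap1 was -0.06. Nqo1, a quinone reductase used as a readout of NRF2, was low and fell by 0.66 ± 0.20 (adjusted p = 0.00986), from 4.34, 5.84 and 6.85 CPM to 1.83, 3.98 and 4.31 CPM. No value overlapped, and BCR::ABL1+ replicate 2 was the lowest.

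Hmox1, the inducible haem oxygenase, was the member with the widest spread of log2 CPM in BCR::ABL1+ cells, while in BCR::ABL1- cells Cybb was wider. Its values were 1.51, 4.84 and 8.19 CPM in BCR::ABL1- cells and 0.856, 2.06 and 9.87 CPM in BCR::ABL1+ cells, the last being replicate 2, which stood far above the other 5 (at most 2.26 CPM). With all libraries the log2 fold change was -0.51 ± 0.51 (adjusted p = 0.401). Without BCR::ABL1+ replicate 2 it was -1.31 (adjusted p = 0.00605). That library decided further members as well: without it 8 members were lower and not 4, the additional ones being Hmox1, Srxn1 (-0.42, adjusted p = 0.00688), Gclc (-0.29, adjusted p = 0.00648) and Txnrd1 (-0.18, adjusted p = 0.0406). Replicate 2 was also the library with the highest summed stromal markers (3721 CPM) and mast cell and basophil markers (2676 CPM), and the part of those cells was not tested.

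The oxidase genes were the most uneven pair. Cyba encodes p22phox, the partner subunit, and rose by 0.93 ± 0.18 on the log2 scale (adjusted p = 0.000482), from 29.6, 38.9 and 42.4 CPM to 37.4, 68.7 and 108 CPM, with BCR::ABL1+ replicate 5 inside the control range. With the length trend removed its change was 0.51. Cybb encodes gp91phox, the catalytic subunit, and had 14.7, 39.5 and 102 CPM against 25.05, 54.4 and 97.3 CPM (0.29 ± 0.39, adjusted p = 0.543). Its highest control value was in replicate 4, the control library with the highest summed neutrophil markers (4923 CPM). That list had 5 genes higher and 5 lower in BCR::ABL1+ cells, so its sum does not stand for a single cell type.

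**Figure D4:**
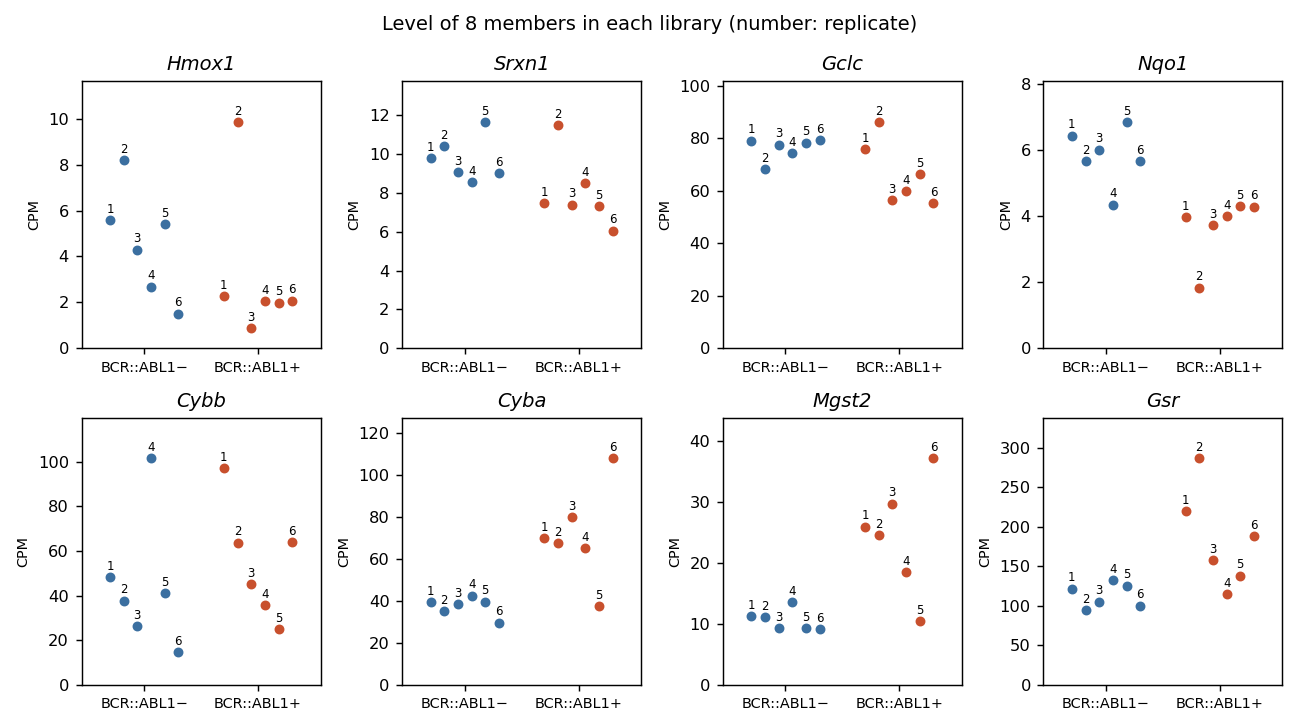
CPM of 8 members in each library, numbered by replicate, with BCR::ABL1- in blue and BCR::ABL1+ in red; the members were picked after their values had been seen, to show single libraries that stand apart. Hmox1, Srxn1 and Gclc were highest among BCR::ABL1+ libraries in replicate 2, Nqo1 was lowest there, and Cyba and Mgst2 were lowest in replicate 5 and highest in replicate 6.

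Variation among the BCR::ABL1+ libraries had a shared side. For 32 of 36 members the SD of log2 CPM was larger in BCR::ABL1+ than in BCR::ABL1- cells, with medians of 0.24 and 0.13. Replicates 4 and 5 had the lowest summed neutrophil markers of the BCR::ABL1+ libraries (3629 and 3170 CPM, the other 4 having 6157 to 8603), and for 10 members, Cyba, Cybb, Gpx1, Gpx4, Gsr, Gstm1, Gsto1, Mgst1, Mgst2 and Prdx5, the same libraries held the pair of lowest values. Of these 10, 8 are called higher, as are 18 of all 36 members. The share of all genes with this same lowest pair was not counted, so the pattern may not be particular to the members. Replicate 2 was the highest BCR::ABL1+ library for 16 members and replicate 6 for 14. The neutrophil list had 5 genes higher and 5 lower in BCR::ABL1+ cells, so its sum does not stand for a single cell type. The part of myeloid cells in these levels was not tested. In the pair of libraries numbered 6, whose library numbers stood near each other and apart from those of the other replicates, all 22 called members had the direction seen over the 12 libraries. Both libraries were part of the fit that made the calls. For 12 members called higher and 4 called lower the groups do not overlap, which fixes the direction in any pair. The pair is thus no separate check.

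Summed over its genes, each family gives a relative level in CPM, not corrected for gene length, and such a sum is set mostly by its most abundant members. Peroxiredoxin transcripts summed to 733 ± 54.2 CPM (SD, n = 6) in BCR::ABL1- cells and 1173 ± 146 CPM in BCR::ABL1+ cells, 1.60 times as much, and the thioredoxin system to 478 ± 33.5 and 608 ± 60.9 CPM, 1.27 times as much. Txn1 made up 35.6% of the latter sum in BCR::ABL1- cells and 54.2% in BCR::ABL1+ cells. Glutaredoxins rose from 190 ± 10.1 to 305 ± 44.7 CPM, glutathione peroxidases from 151 ± 10.5 to 324 ± 74.2 CPM and glutathione transferases from 224 ± 17.1 to 352 ± 83.4 CPM. In these 5 families the lowest BCR::ABL1+ library exceeded the highest control library.

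The remaining 4 families overlapped between groups. Glutathione synthesis and reduction summed to 304 ± 20.9 and 367 ± 79.7 CPM, and catalase with the dismutases to 389 ± 25.8 and 368 ± 29.8 CPM. The NRF2 group summed to 172 ± 8.79 and 144 ± 21.5 CPM, with BCR::ABL1+ replicate 2 at 182 CPM inside the control range. Nfe2l2 and Keap1 made up 49.3% and 44.6% of that sum in BCR::ABL1- cells and 58.2% and 37.0% in BCR::ABL1+ cells. It therefore mostly reflects an activator and its inhibitor, not the NRF2 targets. The oxidase subunits had 82.3 ± 33.7 and 126 ± 41.2 CPM.

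**Figure D5:**
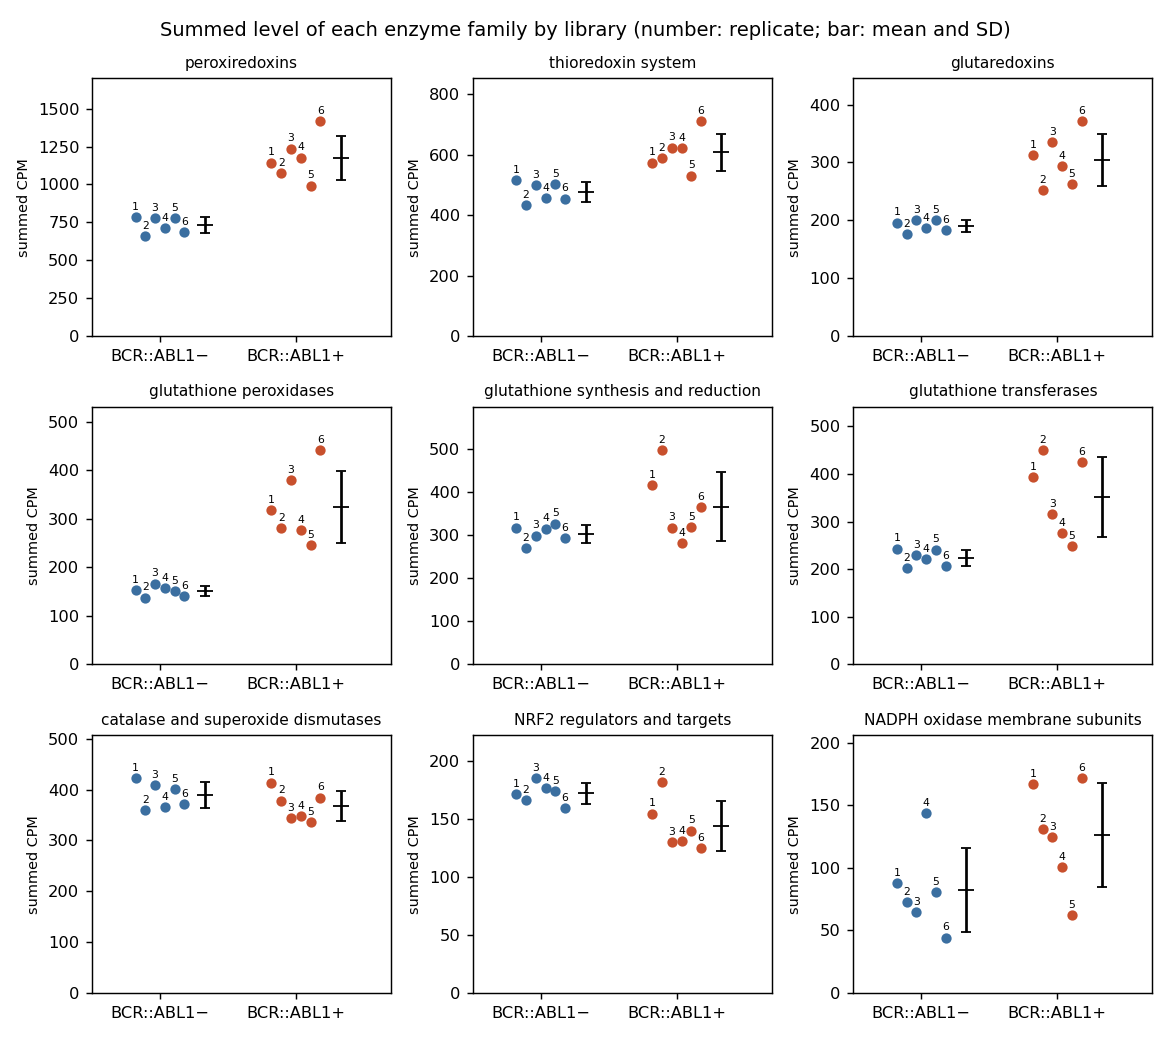
Summed CPM of each of the 9 enzyme families in each library (numbered by replicate), with the mean and SD of each group of 6 as black bars and axes that start at 0. Glutathione peroxidases show the largest ratio, 151 against 324 CPM on average, and catalase with the dismutases show similar sums, 389 and 368 CPM.

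Other genes of the same pathways, taken from lists drawn up with earlier results of these data known, gave 36 higher and 27 lower of 103 tested. Over all genes tested, 30.6% were higher and 29.0% lower. The counts of each list below stand against these same shares. Among 29 further antioxidant enzymes 17 were higher and 3 lower, led by the selenoproteins of the endoplasmic reticulum. Selenos rose from 20.6, 23.6 and 25.1 CPM to 47.5, 68.2 and 86.9 CPM (log2 fold change 1.52 ± 0.13, adjusted p = 1.97e-07), Selenom rose by 1.44 and Selenof by 1.11, all without overlap. Txnip, which binds and inhibits thioredoxin, fell by 1.31 ± 0.14 on the log2 scale (adjusted p = 1.62e-06), from 329, 444 and 547 CPM to 146, 183 and 240 CPM, and the testis-type reductase Txnrd3 fell by 0.63. Every BCR::ABL1+ library thus held more Txn1 and less Txnip than every control library.

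Among 28 other glutathione genes 11 were higher and 8 lower. The largest rise among those with a mean log2 CPM of at least 1 was that of Slc7a11, the cystine importer that feeds glutathione synthesis, from 0.867, 1.35 and 1.74 CPM to 3.26, 6.94 and 50.6 CPM. Its log2 fold change was 3.50 ± 0.59 (adjusted p = 0.000146), and 2.61 without BCR::ABL1+ replicate 6, the setting that moved it most among those that left out 1 library. Esd, which acts on S-formylglutathione, rose by 0.95 and Ggct, which cleaves gamma-glutamyl peptides, by 0.90. The transferases Gstm7 and Gstk1 fell by 0.91 and 0.87, and Ggt5, which cleaves glutathione conjugates outside the cell, fell by 0.72.

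Of 9 other NADPH oxidase genes 4 were lower. Rac2, the GTPase that activates the complex, fell by 0.60 ± 0.09 (adjusted p = 4.2e-05). The 26 other genes of the NRF2 axis had 3 higher and 10 lower. Idh1, a cytosolic source of NADPH, rose by 1.04, Blvra, which turns biliverdin to bilirubin, by 0.79, and Rbx1, part of the ligase that KEAP1 serves, by 0.63, while Bach2, a repressor that competes at the antioxidant response element, fell by 1.06, Blvrb by 0.91 and the small MAF partner Mafk by 0.60. Of 11 genes of selenoprotein synthesis 4 were higher and 2 lower. Pstk and Sephs2, which act on selenocysteine tRNA and make selenophosphate, rose by 0.97 and 0.58. Eefsec, which delivers that tRNA to the ribosome, fell by 0.51, and Secisbp2 fell by 0.40. The groups did not overlap for any of the genes named from these lists.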

How the data were processed

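Bulk RNA-seq of sorted CD45.2+ LSK cells was analysed in 12 libraries, 6 per group, grouped by their titles. The labels do not tie each library to 1 mouse, so p-values measure the spread between these libraries. Raw read counts per Ensembl gene were deposited by the authors, 1 table per library. The submitters' processing notes name FastQC 0.11.9, fastp 0.23.2, STAR 2.7.10a, featureCounts 2.0.1 and DESeq2 1.36.0 with mm39 (GRCm39), whereas the study's methods name Trim Galore, HISAT2, featureCounts and a human build; strand setting and annotation release are not given in the sources used here. From the counts, edgeR 4.0.16 (R 4.3.3) with TMM factors, its default filter on low counts and the quasi-likelihood test compared the groups over 18438 genes, p-values being adjusted by Benjamini-Hochberg and called under 0.05. CPM are counts scaled to library totals multiplied by the TMM factors; log2 fold changes are BCR::ABL1+ minus BCR::ABL1-. Symbols, exon lengths and overlaps came from GENCODE vM21 (GRCm38), matched by gene identifier, and promoters from RefSeq (GRCm38.p6). An exact permutation test planned for the family sums was computed and then left out, because the members were chosen with results known, so these sums carry no test. The search for near copies first used whole transcripts and was changed, after its result was seen, to coding sequence, which found more members with a copy.

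On simulated counts for this comparison (18165 genes), edgeR recovered 24 of 97 genes changed by 0.5 on the log2 scale and 59 of 97 changed by 1, with 4 false calls among 17971 unchanged genes. Far fewer genes changed there than in the data, where 5637 were higher and 5339 lower. Each simulated gene had the same spread in both groups, whereas the biological coefficient of variation here was 10.8% and 32.6%. These figures therefore need not hold for the data. At a library floor of 3 counts, 0.0717 to 0.186 CPM are detectable; every member had at least 14 counts in each library. No library pair was as close as sampling noise (lowest chi-square per degree of freedom 4.07).

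The members, the other gene lists and the alternatives were chosen with earlier results of these data known, and the removal of length and GC trends after the data had been seen. All 36 members are named; from each other pathway list the text names at most 3 higher and 3 lower genes of largest change with adjusted p under 0.05, mean log2 CPM of at least 1 and groups that do not overlap; of the marker lists it names the sort markers and at most the most abundant genes. Among the other NADPH oxidase genes, those that rose are not reported here. Alternatives were other normalizations (DESeq2 1.42.0 size factors, upper quartile, totals), DESeq2 and limma voom (limma 3.58.1), other filters, a replicate block, leaving out libraries and stricter thresholds.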

Additional observations from a re-analysis of the deposited data

Results flagged for a closer look

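Within groups of 6 libraries, a single value stood apart from the rest by a gap beyond Dixon's 95% limit in 4 of 90 groups examined, over 36 members and 9 family sums in each condition, and chance gives about 1 in 20. All 4 were in BCR::ABL1+ libraries, 3 of them in replicate 2 and 1 in replicate 4. Hmox1 was highest in replicate 2 at 9.871 CPM, the next value being 2.26. Txnrd2 was lowest there at 15.657 CPM (next 19.4), and so was Nqo1 at 1.829 CPM (next 3.73). Prdx4 was highest in replicate 4 at 49.382 CPM (next 38.4).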

How the results depend on the processing

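Over 25 alternative fits, 18 of the 22 called members were called in every one; the exceptions were Prdx6, Txnrd2, Gstp1 and Keap1, and 20 of the 22 had the same direction throughout. Of the 14 members not called, 9 were called in at least 1 alternative. The number of members lower, 4, became 8 without BCR::ABL1+ replicate 2 and 8 without replicates 2 and 4, 2 with length and GC trends removed and 2 at an absolute log2 fold change of at least 0.5; the cause was not tested. Leaving out 1 library gave 16 to 19 members higher and 3 to 8 lower. Across other settings the members higher ranged from 15 to 20. With the family mean of log2 CPM in place of the sum, the difference was 0.45 for peroxiredoxins, 0.10 for the thioredoxin system, 0.43 for glutaredoxins and -0.51 for the NRF2 group, since each gene then weighs the same.

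Changes of direction concerned these values. With upper-quartile factors Gclm was 0.0442 and Nfe2l2 0.0548. Without a filter Sod1 was -0.0311 and Sod2 -0.0222, and with a filter of 1 CPM in 6 libraries Gclm was 0.0137 and Nfe2l2 0.0242. Without both replicates numbered 6 Sod1 was -0.000217 and Nfe2l2 0.022. With the length trend removed Prdx4 was -0.0367, Txnrd1 0.0786, Glrx 0.0798, Gclm 0.16 (past the threshold), Gstp1 -0.064 and Nfe2l2 0.0132. With length and GC trends removed Prdx4 was -0.11, Txn2 0.0921, Txnrd1 0.098, Txnrd2 0.10 and the median log2 fold change of all genes tested -0.00605. Leaving out 1 library gave -0.0113 to 0.10 for Sod2, -0.0042 to 0.0842 for Sod1, -0.0663 to 0.00663 for Gclm and -0.103 to 0.0133 for Nfe2l2.

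Replicate numbers did not mark shared samples: the correlation of deviations between same-numbered libraries was -0.17 to 0.12. With the replicate block 16 members were higher and 3 lower.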
